A study of Mus musculus with 8 samples.

Results

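The arginine tRNA genes were all rows of a small RNA table from cultured mouse bone marrow progenitors whose names give arginine and any anticodon, with no filter on level. There were 23 such rows among 328 tRNA rows and 964 rows in all. Each row is called a copy here, and the copies that share an anticodon form an isoacceptor. The table held 6 copies of Arg-ACG, 3 of Arg-CCG, 5 of Arg-TCG, 4 of Arg-TCT and 5 of Arg-CCT, with anticodons written as DNA.

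The libraries came from sorted granulocyte-monocyte-lymphoid progenitors (GMLPs) of mouse bone marrow, 4 from wild-type (WT) mice and 4 from iMLL-ENL mice, which carry an inducible form of MLL-ENL, a leukaemia fusion of MLL and ENL. Cells of both groups were grown in vitro for 3 days with doxycycline, so the WT cells received the drug as well. The promoter that drives the fusion, the strain, the age of the mice and whether the replicates came from separate mice have no entry in the labels. The p-values therefore weigh group differences against the scatter of these libraries only, and part of that scatter may be technical. No protein-coding marker was analysed here, so neither the GMLP identity nor the level of the fusion was checked.

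A tRNA carries an amino acid to the ribosome and reads a codon through its anticodon. Arginine is encoded by the CGN codons, read by tRNAs with the anticodons ACG, CCG and TCG, and by AGA and AGG, read by TCT and CCT. In Arg-ACG the first anticodon base is deaminated to inosine, which widens the set of codons it reads, and Arg-TCT genes in mammals often hold a short intron that is spliced out of the precursor. Small RNA libraries hold reads from whole tRNAs and from tRNA fragments, and read lengths were not analysed here, so the values below are summed reads of both kinds. In bulk samples, fewer cells of a type and less RNA per cell cannot be told apart.

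RefSeq annotates 24 arginine tRNA genes on GRCm38.p6, and their numbers per isoacceptor match those of the table except for Arg-TCT, with 5 genes and 4 rows. They lie on 11 chromosomes, with 8 on chromosome 13 between positions 21215458 and 23526528 and 5 on chromosome 11. The Arg-ACG, Arg-CCG, Arg-TCG and Arg-CCT genes are all 73 bases long, whereas the Arg-TCT genes span 74 to 87 bases and 4 of the 5 are longer than 80. The table names a copy by a number and its anticodon, and no row was paired with a RefSeq gene here, so the copies below have no coordinates. A gene of each of the isoacceptors that fell is shown. Sequences of Arg-ACG, Arg-CCG and Arg-CCT genes were not available here. Likeness between the genes shown therefore cannot be called particular to the isoacceptors that fell. The sequences are the GRCm38.p6 gene sequences from GENCODE M21 transcripts that cover RefSeq's tRNA genes, 5′ to 3′ on the strand of the tRNA, with the anticodon at bases 34 to 36 in capitals.
n-TRtcg5 (Arg-TCG, plus strand, chr7:79466419-79466491): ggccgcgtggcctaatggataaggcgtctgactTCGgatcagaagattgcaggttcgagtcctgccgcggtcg
n-TRtct2 (Arg-TCT, minus strand, chr3:122292948-122293032): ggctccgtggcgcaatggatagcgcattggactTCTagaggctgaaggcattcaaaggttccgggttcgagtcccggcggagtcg
The first lies within an exon of Gm10616 and the second within a retained-intron exon of Gm17494 in GENCODE M21. The Arg-TCT gene is 85 bases long. Position by position, 24 of the 33 bases before the anticodon and 16 of the last 20 bases were identical between these genes. Both hold GTTCGA, the core of the T loop. Reads from near-identical copies of the same isoacceptor can be shared between rows. A value of a single copy is therefore uncertain where the authors' counting could split or repeat such reads. Copies of the same isoacceptor were not compared in sequence here.

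Values are reads scaled to a fixed library total (RPM), and a read was worth 0.108 to 0.169 RPM, estimated from the steps between low values. Arginine tRNAs were a small part of the tRNA reads: 0.299% to 0.348% in the 4 iMLL-ENL libraries, 0.385% to 0.486% in WT replicates 1, 3 and 4, and 1.48% in WT replicate 2. By the same estimate the 23 rows held 5545 to 6174 reads in an iMLL-ENL library, 6737 to 10203 in those 3 WT libraries and 37987 in WT replicate 2, and the lowest copy of a library held 52.0 to 318 reads. WT replicate 2 stood apart: over the 633 rows past the filter on low values its mean correlation within its group was 0.908. The 3 remaining WT libraries had 0.955 to 0.968, and those of iMLL-ENL about 0.99. It held 2.60 to 5.41 times the mean of the other WT libraries for 4 of the arginine isoacceptors and 0.898 times for Arg-CCT. Its effect on a result is given beside that result.

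The isoacceptors were compared between groups to learn which arginine tRNAs differ in the presence of the fusion. Arg-TCG and Arg-TCT fell in iMLL-ENL cells, the remaining CGN readers Arg-ACG and Arg-CCG did not pass the test over all 8 libraries, and Arg-CCT, which reads AGG, had nearly the same mean in both groups. Thus 2 of 5 isoacceptors were called lower and 0 higher at a limma adjusted p under 0.05, where 17.9% of all 67 families of rows, and 22.9% of the 48 tRNA isoacceptors among them, were called lower. With WT replicate 2 left out Arg-ACG was called lower as well, where 22.4% of families were. The groups did not overlap for Arg-TCG, Arg-ACG and Arg-TCT, against 16.4% of families that were lower with no overlap. A fold change below is the iMLL-ENL minus WT difference of log2(RPM + 1) with its standard error, and p-values were adjusted by Benjamini-Hochberg over the 67 families.

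Arg-TCG, the reader of CGA, summed to 549, 2327, 494 and 246 RPM in WT replicates 1 to 4, and to 152, 80.1, 110.2 and 136 RPM in iMLL-ENL replicates 1 to 4. Every WT library was above every iMLL-ENL library, and WT replicate 2 was far above the rest. The WT mean was 904 ± 957 RPM and the iMLL-ENL mean 119 ± 31.3 RPM (SD, n = 4 each), a log2 fold change of -2.43 ± 0.61 (limma adjusted p = 0.0153). Without WT replicate 2 the WT mean was 430 ± 161 RPM (SD, n = 3), the iMLL-ENL mean was 0.278 times that value, and the fold change was -1.80 ± 0.36 (limma adjusted p = 0.0067). With the replicate number as a block over all 8 libraries the call was lost (limma adjusted p = 0.058). In reads not scaled by length, Arg-TCG had the highest mean of the arginine isoacceptors in WT, and in iMLL-ENL it came after Arg-CCT and Arg-TCT.

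Arg-ACG, whose wobble adenosine becomes inosine, reached 170.5, 763, 145 and 110.03 RPM in the WT libraries, while those of iMLL-ENL held 91.3, 71.5, 78.7 and 91.6 RPM. The groups did not overlap, but 3 WT libraries lay between 110.03 and 170.5 RPM and 1 lay far above them. The means were 297 ± 311 and 83.3 ± 9.9 RPM (SD, n = 4 each), with a log2 fold change of -1.36 ± 0.55 that did not pass the test (limma adjusted p = 0.0772). Leaving out WT replicate 2 made the difference and its error smaller, at -0.75 ± 0.16, which passed the test (limma adjusted p = 0.00015).

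Arg-CCG, the reader of CGG, gave 116, 288, 116 and 100.5 RPM in the WT libraries, and 97.7, 96.7, 100.65 and 102 RPM in those of iMLL-ENL. The groups overlapped, and outside WT replicate 2 all 7 libraries lay between 96.7 and 116 RPM. The log2 fold change was -0.50 ± 0.30 (limma adjusted p = 0.191), and -0.16 ± 0.16 without WT replicate 2 (limma adjusted p = 0.386).

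Arg-TCT, the reader of AGA, whose wobble uridine is modified through the Elongator pathway, gave 342, 1309.8, 311 and 218 RPM in the WT libraries, and 159, 126, 149 and 153 RPM in those of iMLL-ENL. The groups did not overlap. The means were 545 ± 513 and 147 ± 14.7 RPM (SD, n = 4 each), with a log2 fold change of -1.51 ± 0.50 (limma adjusted p = 0.0395). Without WT replicate 2 it was -0.96 ± 0.15 (limma adjusted p = 2.4e-07), whereas leaving out WT replicate 1, WT replicate 3 or any 1 of the iMLL-ENL libraries ended the call, with adjusted p up to 0.0863. Scaling to the total of all rows or of the tRNA rows also ended it, at -1.22 and -1.06 (limma adjusted p = 0.052 and 0.067). So did a block for the replicate number (limma adjusted p = 0.082).

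Arg-CCT, the reader of AGG, gave 251, 247, 303 and 269.8 RPM in the WT libraries, and 292, 224, 245 and 291 RPM in those of iMLL-ENL. The groups overlapped throughout, and WT replicate 2, the lowest WT library, lay close to replicate 1. The means were 268 ± 25.7 and 263 ± 34.1 RPM (SD, n = 4 each), with a log2 fold change of -0.03 ± 0.12 (limma adjusted p = 0.862). Its direction depended on the scaling: with libraries scaled to the total of the tRNA rows the fold change was 0.42 and was called higher (limma adjusted p = 0.027).

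**Figure D1:**
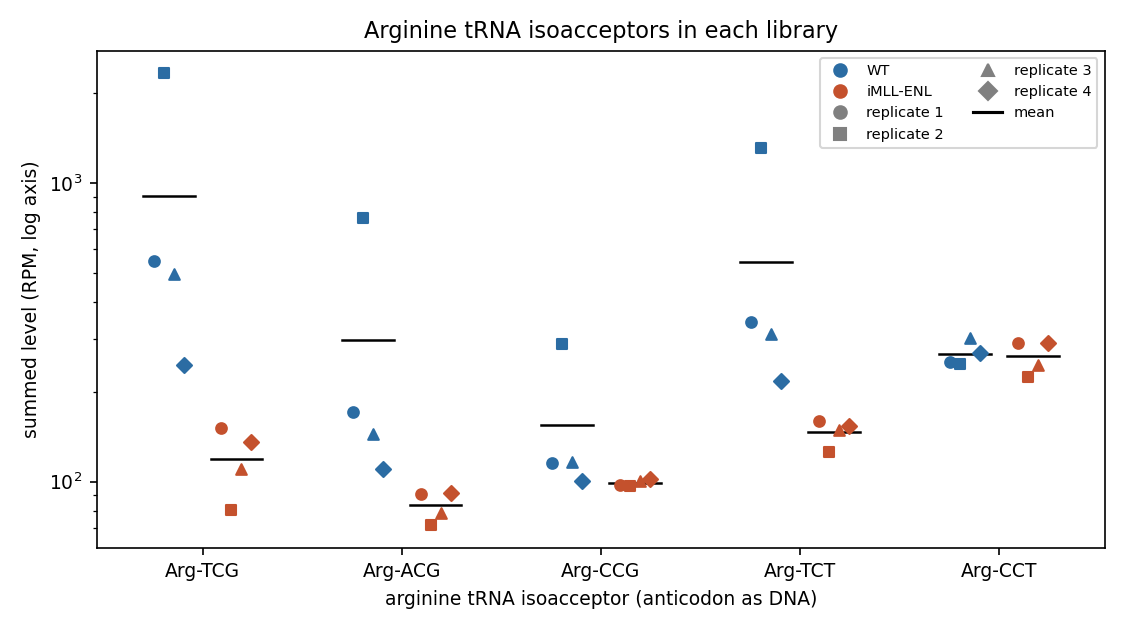
Summed level of each arginine tRNA isoacceptor in RPM (log axis) in the 4 WT and 4 iMLL-ENL libraries, with a marker shape for each replicate number and a bar at the group mean. Arg-TCG, Arg-ACG and Arg-TCT are lower in every iMLL-ENL library than in any WT library, Arg-CCT overlaps fully, and WT replicate 2 is the highest library for every isoacceptor but Arg-CCT.

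All arginine tRNAs together came to 1428, 4934, 1369 and 944 RPM in the WT libraries, and to 792, 598, 684 and 773 RPM in those of iMLL-ENL. The sums did not overlap between groups. The log2 fold change was -1.30 ± 0.45 (limma adjusted p = 0.0408 over 40 sums by amino acid and other families, of which 17.5% were called lower, as were 28.6% of the 21 amino acid sums), and -0.79 ± 0.19 without WT replicate 2 (limma adjusted p = 0.000148). The call was lost when WT replicate 1, WT replicate 3 or any 1 of the iMLL-ENL libraries was left out, with adjusted p up to 0.0927. A block for the replicate number also ended it (limma adjusted p = 0.057). Among the 21 amino acid sums arginine had the lowest fold change after tRNA-His at -2.02 and tRNA-Asp at -1.42. Without WT replicate 2 tRNA-Val, at -0.91, was below arginine as well. The readers of CGN codons held 1356 ± 1357 RPM in the WT libraries and 302 ± 41.9 RPM in those of iMLL-ENL, and the readers of AGA and AGG to 813 ± 499 and 409.9 ± 47.6 RPM (SD, n = 4 each). Without WT replicate 2 the WT means were 682 ± 199.6 and 565 ± 67.9 RPM (SD, n = 3).

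The make-up of the arginine reads differed between groups. Arg-TCG took 38.5%, 47.2%, 36.1% and 26.1% of the arginine reads in WT and 19.1%, 13.4%, 16.1% and 17.6% in iMLL-ENL. Arg-CCT took 17.6%, 5.0%, 22.1% and 28.6% in WT and 36.9%, 37.4%, 35.8% and 37.6% in iMLL-ENL, so that it was the largest arginine isoacceptor in all 4 iMLL-ENL libraries and in WT replicate 4. Neither share overlapped between groups, and the Arg-CCT share spread over 0.8 percentage points (SD) in iMLL-ENL and 9.96 in WT. Arg-CCG took 8.10%, 5.84%, 8.50% and 10.6% in WT and 12.3%, 16.2%, 14.7% and 13.2% in iMLL-ENL, also with no overlap. The share of Arg-TCT was 22.7% to 26.5% in WT and 19.8% to 21.8% in iMLL-ENL, and that of Arg-ACG was 10.6% to 15.5% and 11.5% to 11.96%.

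**Figure D2:**
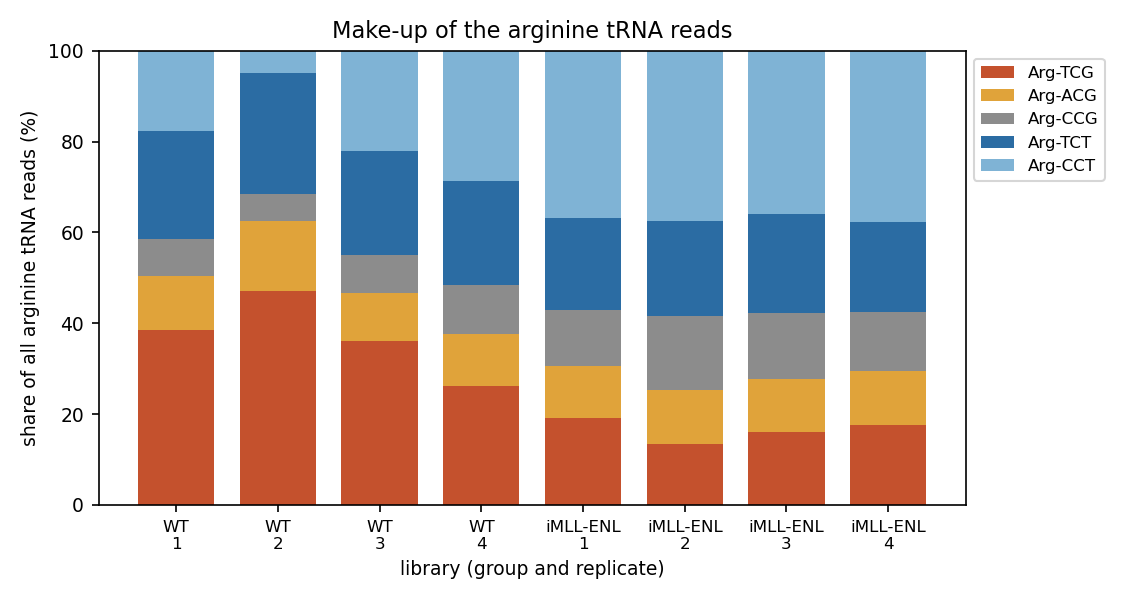
Share (%) of all arginine tRNA reads taken by each isoacceptor, as a stacked bar for each of the 8 libraries by group and replicate. Arg-TCG takes 26.1% to 47.2% in WT and 13.4% to 19.1% in iMLL-ENL, and Arg-CCT takes 5.0% to 28.6% and 35.8% to 37.6%.

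Because a share of 1 isoacceptor moves with the rest, the 10 pairs of arginine isoacceptors were also compared as log2 ratios within a library, which no scaling between libraries can alter. This test was added after the data were seen, and p-values were adjusted over all 49 pairs of isoacceptors of the same amino acid, of which 46.9% were called. Of the arginine pairs 6 of 10 were called, a share that is not far from this background. Arg-TCG was in 4 of the called pairs, each time as the member that was lower relative to its partner. The log2 ratio of Arg-CCT to Arg-TCG rose by 2.40 ± 0.64 (limma adjusted p = 0.0155), and by 1.73 ± 0.28 without WT replicate 2 (limma adjusted p = 0.0012). That of Arg-ACG to Arg-TCG rose by 1.07 ± 0.17 (limma adjusted p = 0.0016), and that of Arg-CCG to Arg-TCG by 1.93 ± 0.36 (limma adjusted p = 0.0040). Arg-TCG against Arg-TCT fell by 0.92 ± 0.18 on the log2 scale (limma adjusted p = 0.0043). The remaining called pairs were Arg-CCG over Arg-TCT, at 1.01 ± 0.22, and Arg-ACG over Arg-CCG, at -0.86 ± 0.27. The latter was called with limma adjusted p = 0.027, but not when WT replicate 1 or iMLL-ENL replicate 2, 3 or 4 was left out. The pairs that did not pass were Arg-ACG over Arg-TCT at 0.15 ± 0.09, Arg-CCG over Arg-CCT at -0.47 ± 0.36, Arg-ACG over Arg-CCT at -1.33 ± 0.59 and Arg-CCT over Arg-TCT at 1.48 ± 0.54. Without WT replicate 2 all but Arg-CCG over Arg-CCT were called, 9 of 10 against a background of 63.3%.

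**Figure D3:**
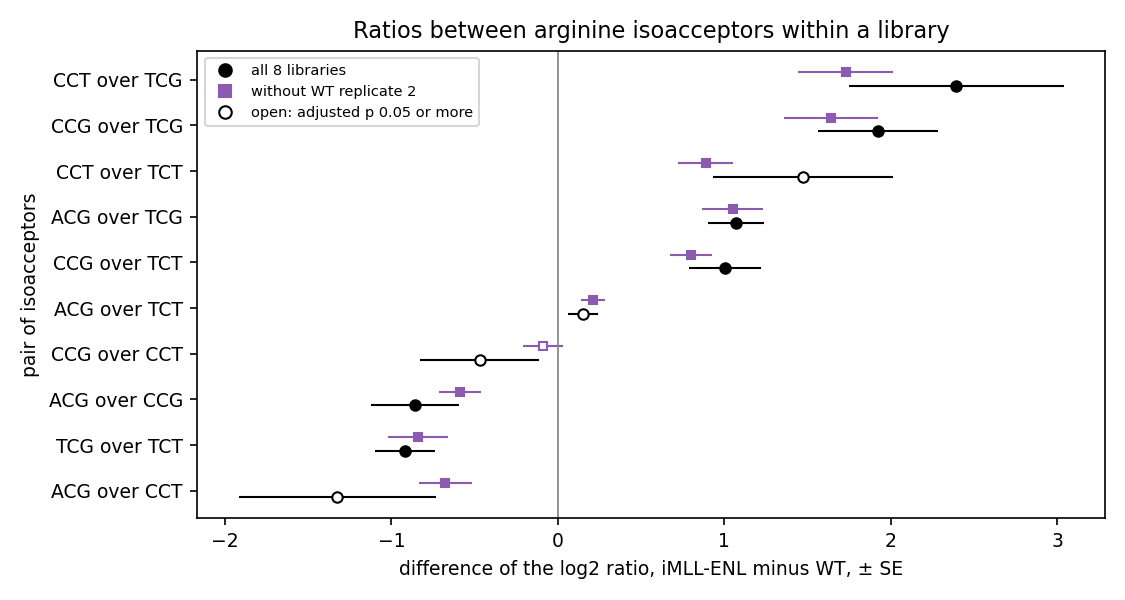
Difference between iMLL-ENL and WT in the log2 ratio of each pair of arginine isoacceptors, ± SE, with all 8 libraries (black circles) and without WT replicate 2 (purple squares); open symbols have a limma adjusted p of 0.05 or more. All 4 ratios that involve Arg-TCG are displaced from 0 in the direction of a lower Arg-TCG, with and without WT replicate 2.

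By copy, all 23 arginine rows passed the filter of at least 10 RPM in at least 4 libraries. At a limma adjusted p under 0.05 over 633 rows, 7 of 23 were called lower and 0 higher, where 8.53% of all tested rows and 19.1% of tested tRNA rows were called lower. The called copies were all 5 of Arg-TCG and 2 of the 4 of Arg-TCT, and none belonged to Arg-ACG, Arg-CCG or Arg-CCT. The median log2 fold change of the arginine copies was -1.07 against 0.31 over all 633 rows. By isoacceptor it was -1.36 for the 5 of arginine and 0.05 over all 48 of tRNA. Of the 54 rows called lower 53 were tRNA rows, so the share over all rows understates that of tRNA rows. Shares over tRNA rows alone are not given for the counts below. The number of copies called depended on single libraries. Without WT replicates 1, 2, 3 and 4 it was 1, 14, 5 and 9, of 21, 21, 22 and 23 tested. There 2.07%, 15.7%, 5.4% and 8.74% of all tested rows were called lower. It was 4, 2, 2 and 3 without iMLL-ENL replicates 1, 2, 3 and 4, of 22, 23, 22 and 22 tested. There 3.1%, 3.15%, 3.48% and 4.79% of rows were called lower. Of the 21 copies tested without WT replicate 2, the 14 called were 5 of Arg-ACG, 1 of Arg-CCG, 5 of Arg-TCG and 3 of Arg-TCT, all 7 of the first calls among them. With quantile normalization 14 of 22 tested copies were called, against 9.21% of rows called lower, and with trimmed-mean scaling 16 of 22, against 21.4%. The groups did not overlap for 14 of 23 copies, each lower in iMLL-ENL, against 11.4% of tested rows. These were 4 of Arg-ACG, 1 of Arg-CCG and every copy of Arg-TCG and Arg-TCT, and no copy of Arg-CCT.

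Among the Arg-TCG copies tRNA1023-ArgTCG had the most reads and the lowest fold change. It measured 160.3, 841, 155 and 70.1 RPM in the WT libraries and 28.9, 15.3, 23.5 and 25.9 RPM in those of iMLL-ENL, with a log2 fold change of -3.05 ± 0.65 (limma adjusted p = 0.0131), and -2.35 ± 0.30 without WT replicate 2 (limma adjusted p = 0.00018). It was the only arginine copy whose call held when any single library was left out, with adjusted p up to 0.0403. The copies tRNA961-ArgTCG, tRNA960-ArgTCG and tRNA74-ArgTCG fell by 2.76 ± 0.68, 2.57 ± 0.59 and 2.53 ± 0.63 on the log2 scale, with limma adjusted p = 0.0223, 0.0170 and 0.0225, and by 2.08, 1.99 and 1.87 without WT replicate 2. The calls of tRNA961-ArgTCG and tRNA74-ArgTCG were lost when WT replicate 1 or 1 of iMLL-ENL replicates 2, 3 and 4 was dropped, where the adjusted p reached 0.0568. That of tRNA960-ArgTCG was lost when WT replicate 1 was dropped. In each of the 3 the lowest WT library, replicate 4 with 50.5, 40.9 and 37.4 RPM, was above the highest iMLL-ENL library, with 36.5, 27.6 and 23.1 RPM.

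The remaining Arg-TCG copy, tRNA389-ArgTCG, measured 51.4, 69.5, 47.9 and 47.4 RPM in the WT libraries and 35.6, 30.7, 33.2 and 45.3 RPM in those of iMLL-ENL. Its groups came within a few RPM of each other, and WT replicate 2 was only 1.42 times the mean of the other WT libraries, against 4.67 to 6.55 times for the other 4 copies of this isoacceptor. Its log2 fold change was -0.56 ± 0.18 (limma adjusted p = 0.0434). The call was lost when WT replicates 1 or 3, or iMLL-ENL replicates 1, 2 or 3, were dropped in turn. It was also lost under scaling to the total of all rows or of the tRNA rows, with limma adjusted p = 0.165 and 0.548. Fitting limma without trend or with a block for the replicate number ended it too (limma adjusted p = 0.056 and 0.068).

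Of the Arg-TCT copies, tRNA628-ArgTCT had the most reads, with 162, 678, 133 and 84.2 RPM in the WT libraries and 42.9, 34.1, 40.2 and 42.8 RPM in those of iMLL-ENL. Its groups did not overlap and its log2 fold change was -2.21 ± 0.55 (limma adjusted p = 0.0223), and -1.59 ± 0.21 without WT replicate 2 (limma adjusted p = 8.0e-05). tRNA1818-ArgTCT measured 49.7, 217, 51.9 and 33.9 RPM in the WT libraries and 25.2, 13.4, 18.8 and 18.4 RPM in those of iMLL-ENL, a log2 fold change of -1.79 ± 0.51 (limma adjusted p = 0.0335), and -1.22 ± 0.22 without WT replicate 2 (limma adjusted p = 0.00065). The calls of both copies were lost when dropping WT replicate 1 or any 1 of the iMLL-ENL libraries. That of tRNA1818-ArgTCT was also lost when WT replicate 3 was dropped. Over these fits the adjusted p reached 0.0843. A block for the replicate number ended the call of tRNA1818-ArgTCT as well (limma adjusted p = 0.054). The other two copies, tRNA997-ArgTCT and tRNA639-ArgTCT, did not pass the test, at -0.94 ± 0.41 and -0.80 ± 0.38.

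The 6 Arg-ACG copies had WT means of 40.6 to 55.4 RPM and iMLL-ENL means of 8.57 to 20.4 RPM, and none passed the test over all 8 libraries. The copy with the highest mean, tRNA783-ArgACG, measured 35.6, 129.9, 29.1 and 27.2 RPM in the WT libraries and 23.1, 18.1, 19.1 and 21.3 RPM in those of iMLL-ENL. Its groups did not overlap, and its log2 fold change was -1.07 ± 0.45 (limma adjusted p = 0.0972). Among the Arg-CCG copies tRNA945-ArgCCG measured 66.8, 171, 67.5 and 56.8 RPM in the WT libraries and 47.8, 47.3, 43.3 and 48.7 RPM in those of iMLL-ENL, with no overlap and a log2 fold change of -0.79 ± 0.32 (limma adjusted p = 0.0899). tRNA993-ArgCCG measured 37.4, 70.8, 38.9 and 36.4 RPM in the WT libraries and 41.5, 42.3, 47.0 and 41.3 RPM in those of iMLL-ENL, so that outside WT replicate 2 every iMLL-ENL library was above the WT libraries. Its log2 fold change was -0.04 ± 0.21 over all libraries and 0.19 ± 0.15 without WT replicate 2, and neither passed the test.

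The 5 Arg-CCT copies lay between 41.3 and 66.8 RPM in all 8 libraries and overlapped between groups. Their ratios of group means were 0.942 to 1.02. The copy with the highest mean, tRNA107-ArgCCT, measured 51.8, 53.0, 66.8 and 54.4 RPM in the WT libraries and 62.5, 44.0, 49.4 and 58.7 RPM in those of iMLL-ENL, with a log2 fold change of -0.08 ± 0.16 (limma adjusted p = 0.753).

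**Figure D4:**
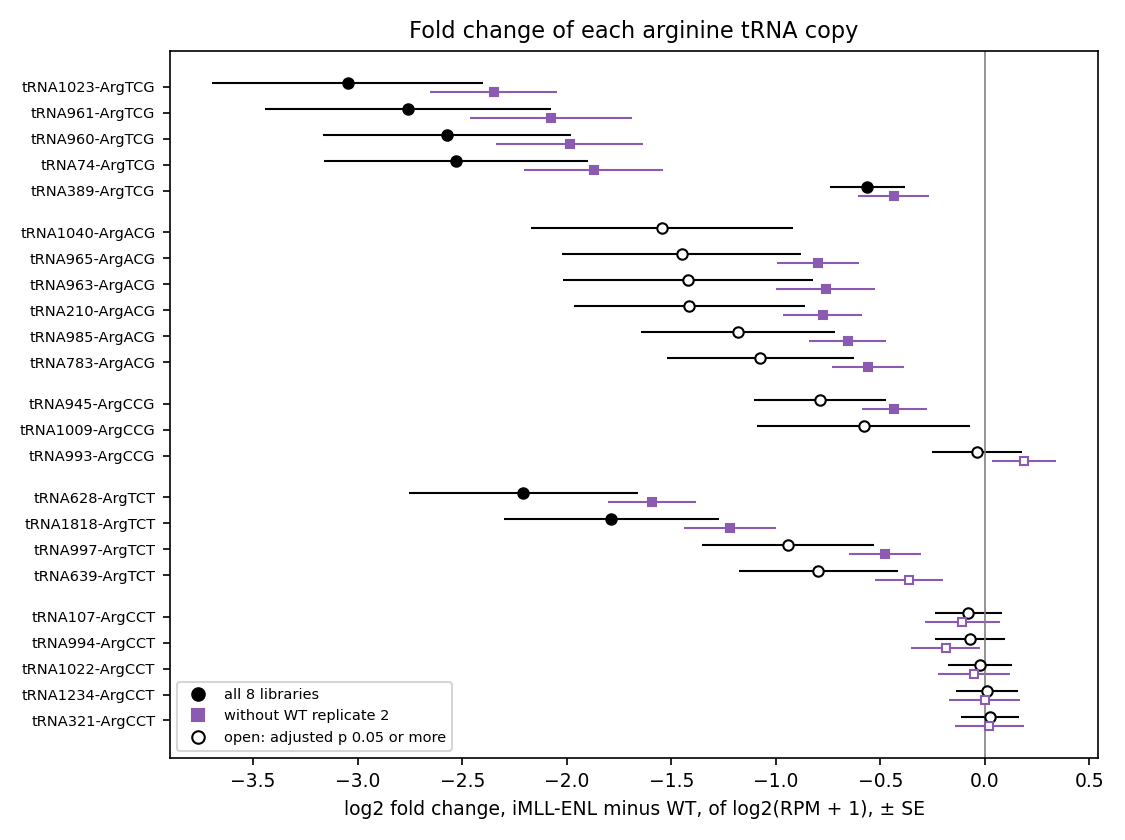
Log2 fold change (iMLL-ENL minus WT, of log2(RPM + 1)) ± SE of each of the 23 arginine tRNA copies, grouped by isoacceptor, with all 8 libraries (black circles) and, for the 21 copies tested there, without WT replicate 2 (purple squares); filled symbols have a limma adjusted p under 0.05. The Arg-TCG copies other than tRNA389-ArgTCG lie furthest to the left, the Arg-CCT copies lie at 0, and leaving out WT replicate 2 moves most points towards 0 and shortens their error bars.

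The authors' deposited table gave an FDR under 0.05 and a lower level in iMLL-ENL for 16 of the 23 arginine copies, where 11.9% of its 964 rows were lower at that FDR, and all 7 copies called here were among them. For tRNA1023-ArgTCG the authors' deposited table gave a log2 fold change of -4.11 with an FDR of 5.5e-07, and for tRNA107-ArgCCT it gave -0.48 with an FDR of 0.393. These values rest on the authors' own scaling and estimator, which were not examined here. Their sizes are therefore not compared with the fold changes above.

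Copies of 1 isoacceptor did not all keep their share of it. The log2 ratio of each copy to the rest of its isoacceptor was compared between groups, a test added after the data were seen, with p-values adjusted over 276 tRNA copies. For arginine 7 of 23 copies were called, where 28.6% of all copies were, so the count itself does not stand out. The count was again 7 without WT replicate 2, against 34.8%. Within Arg-TCG, tRNA389-ArgTCG held 9.35%, 2.99%, 9.69% and 19.2% of the reads in WT and 23.5%, 38.4%, 30.1% and 33.4% in iMLL-ENL. Its ratio to the rest rose by 2.25 ± 0.59 on the log2 scale (limma adjusted p = 0.027), and by 1.70 without WT replicate 2 (limma adjusted p = 0.013). This call was lost when WT replicates 1 or 3, or iMLL-ENL replicates 2, 3 or 4, were dropped in turn, where the adjusted p reached 0.076. tRNA1023-ArgTCG held 28.5% to 36.2% of Arg-TCG in WT and 19.1% to 21.4% in iMLL-ENL, and its ratio to the rest fell by 0.85 ± 0.11 on the log2 scale (limma adjusted p = 0.0017).

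Within Arg-TCT, tRNA628-ArgTCT held 47.4%, 51.8%, 42.8% and 38.7% in WT and 27.0%, 27.1%, 26.9% and 27.9% in iMLL-ENL. Its ratio to the rest fell by 1.12 ± 0.15 (limma adjusted p = 0.0017), while those of tRNA639-ArgTCT and tRNA997-ArgTCT rose by 0.95 ± 0.16 and 0.73 ± 0.12 (limma adjusted p = 0.0036 and 0.0028). Within Arg-CCG, tRNA945-ArgCCG held 56.5% to 59.3% in WT and 43.1% to 48.9% in iMLL-ENL, a fall by 0.61 ± 0.08 (limma adjusted p = 0.0017). The ratio of tRNA993-ArgCCG rose by 0.73 ± 0.17 (limma adjusted p = 0.0176), a call lost without iMLL-ENL replicate 3. No copy of Arg-ACG or Arg-CCT was called, and each Arg-CCT copy held 16.7% to 22.4% of its isoacceptor in all 8 libraries.

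**Figure D5:**
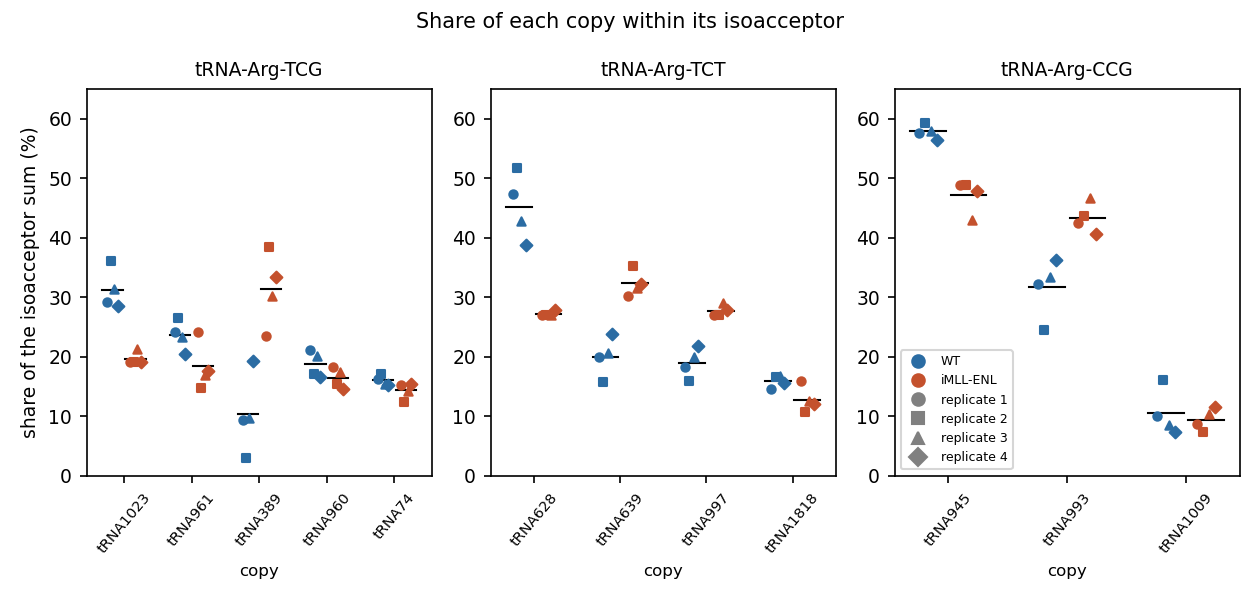
Share (%) of the isoacceptor's reads held by each copy of Arg-TCG, Arg-TCT and Arg-CCG in the 4 WT (blue) and 4 iMLL-ENL (orange) libraries, with a marker shape for each replicate number and a bar at the group mean. The shares of tRNA389-ArgTCG, tRNA639-ArgTCT, tRNA997-ArgTCT and tRNA993-ArgCCG are higher in every iMLL-ENL library than in any WT library. Those of tRNA1023-ArgTCG, tRNA628-ArgTCT and tRNA945-ArgCCG are lower. How many of all tRNA copies have shares without overlap was not counted.

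Other isoacceptors that share a feature with the arginine tRNAs are given for comparison. Of the other 7 isoacceptors with a wobble adenosine, as in Arg-ACG, 2 were called higher, Ser-AGA at 0.43 and Ile-AAT at 0.59, and 1 lower, Pro-AGG at -0.57, with a median log2 fold change of 0.13. Of 4 with a wobble uridine that, as in Arg-TCT, is modified through the Elongator pathway, 1 was called higher, Gly-TCC at 0.40, and 0 lower. Their median was 0.06. Of 4 that read codons ending in CG, Ala-CGC was called higher at 0.66 and Pro-CGG lower at -0.62, with a median of -0.04. Such codons hold a CG, as the CGN codons of arginine do. Among the isoacceptors of leucine and serine, which also have split codon sets, Leu-TAA at 0.39, Ser-AGA and Ser-GCT at 0.55 were called higher and Leu-CAG lower at -0.60. The median over all 48 tRNA isoacceptors was 0.05, and 22.9% of them were called lower. The share called higher was not computed, nor were shares of isoacceptors with trimmed-mean scaling. The counts in these lists are therefore a description only. With trimmed-mean scaling, which moves the median over rows from 0.31 to -0.08, 0 members of these lists were called higher and 7 isoacceptors in them lower, namely Pro-AGG, Val-AAC, Glu-TTC, Gln-TTG, Ser-CGA, Pro-CGG and Leu-CAG, while the arginine median over rows was -1.51. Dropping WT replicate 2 ended the calls of Gly-TCC and Leu-TAA. Thr-AGT and Lys-TTT were then called higher at 0.33 and 0.38, and Val-AAC and Glu-TTC lower at -0.67 and -0.69. In that setting 22.4% of all families were called lower.

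The levels of 4 arginine isoacceptors ran closely together over the 8 libraries, with Pearson's r on the log2 scale given as a description, since they share libraries and depth. Arg-TCT was nearest to Asp-GTC, at r = 0.997, and to Arg-ACG, at 0.993, and then to Arg-TCG, at 0.983. Arg-TCG was nearest to His-GTG, at 0.99, ahead of Arg-TCT and of Asp-GTC at 0.978, and Arg-ACG was nearest to Arg-TCT, Asp-GTC at 0.992 and Arg-CCG at 0.974. Arg-CCG followed Arg-ACG, Arg-TCT at 0.950 and Asp-GTC at 0.948. The order changed with WT replicate 2 left out: Arg-TCG was then closer to Arg-TCT, at 0.995, than to His-GTG, at 0.983, and Arg-TCT was closer to Arg-TCG and to Arg-ACG, at 0.988, than to Asp-GTC, at 0.985. Arg-CCT followed other tRNAs, with its highest r for Thr-TGT at 0.75, SeC-TCA at 0.629 and Gly-GCC at 0.526. His-GTG and Asp-GTC also fell, by 2.02 ± 0.41 and 1.42 ± 0.46 on the log2 scale (limma adjusted p = 0.0066 and 0.0371).

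Copies of the same isoacceptor varied together to different degrees. The median r between copies was 0.993 for Arg-TCG, 0.981 for Arg-ACG, 0.965 for Arg-TCT, 0.896 for Arg-CCG and 0.776 for Arg-CCT over 8 libraries. With WT replicate 2 left out it was 0.984, 0.918, 0.962, 0.106 and 0.815 in the same order, so the likeness of the Arg-CCG copies rested on that library. Both sets of values span the 2 groups, so a difference between groups enters them. Within the 4 iMLL-ENL libraries alone the median r was 0.943, 0.643, 0.868, -0.126 and 0.960 in the same order, highest for Arg-CCT.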

How the data were processed

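Small RNA reads of 8 libraries were analysed from a table in which the authors deposited 1 value per row and library. It is labelled TPM, but within each library 100% of values under 30 RPM were whole multiples of 1 step, within 0.0055 RPM, for rows of every class; the deposited values are therefore treated as RPM. The reads behind a library's scale were estimated from that step, which a separate check of whole reads did not accept for most libraries, at 5913950 to 9274150, and 3 reads correspond to 0.323 to 0.507 RPM. Such floors cover counting error only, and no count test was run. Besides these values, the authors deposited log2 fold changes, p-values and FDR, per the file headers. The build was GRCm38, per the submitters' processing notes; the aligner and the way reads were counted were not given in the sources used here.

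Rows, isoacceptor sums and amino acid sums were tested as log2(RPM + 1) in R 4.3.3 with limma 3.58.1 (moderated, with trend), iMLL-ENL against WT, Benjamini-Hochberg adjusted over all features tested. Rows needed 10 RPM in 4 libraries. The fit was run on simulated data with independent noise in each row. Those data hold no library that stands apart and no likeness between copies, so they do not cover these features. Other steps used Python 3.11.15.

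Members and comparison lists were chosen with earlier results of these data known. Named were all isoacceptors, every called arginine copy, the highest copy of each isoacceptor, called members of the comparison lists and the 3 nearest isoacceptors. Other copies named were chosen after their values were seen.

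Alternatives were other pseudocounts, filters, scalings, quality weights, a replicate block and leaving out each library. The ratio tests and an unweighted trimmed-mean (TMM) scaling, written for this purpose, were chosen after seeing the data.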

Additional observations from a re-analysis of the deposited data

Results flagged for a closer look

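In 29 of 120 sets of 4 libraries (levels or shares of the arginine tRNAs within a group) 1 library stood apart, its gap to the nearest other being a larger part of the whole range than Dixon's critical value for 4 samples. Chance alone marks about 5% of such sets, and the sets overlap, since sums and shares are made from the same copies. WT replicate 2 accounted for 25 of them.

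WT replicate 2 was apart from the other WT libraries in all 6 Arg-ACG copies, with tRNA1040-ArgACG at 109.75, tRNA210-ArgACG at 140.66, tRNA783-ArgACG at 129.88, tRNA963-ArgACG at 121.7, tRNA965-ArgACG at 129.62 and tRNA985-ArgACG at 130.92 RPM. It was apart in all 3 Arg-CCG copies, with tRNA1009-ArgCCG at 46.5, tRNA945-ArgCCG at 171.06 and tRNA993-ArgCCG at 70.79 RPM. Of the Arg-TCG copies, tRNA1023-ArgTCG at 841.13, tRNA961-ArgTCG at 618.25 and tRNA74-ArgTCG at 399.26 RPM stood apart. So did all 4 Arg-TCT copies, tRNA628-ArgTCT at 678.26, tRNA1818-ArgTCT at 217.43, tRNA997-ArgTCT at 208.72 and tRNA639-ArgTCT at 205.35 RPM. No Arg-CCT copy was apart in WT.

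The sums of WT replicate 2 that stood apart were 762.53 RPM for Arg-ACG, 288.35 for Arg-CCG, 2326.61 for Arg-TCG and 1309.76 for Arg-TCT. The readers of CGN codons summed to 3377.49 RPM there, the readers of AGA and AGG to 1556.53 RPM and all arginine tRNAs to 4934.02 RPM, which was 1.48% of its tRNA reads. Its share of tRNA985-ArgACG in Arg-ACG, 17.2%, was below that of the other WT libraries.

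Among the iMLL-ENL libraries, tRNA993-ArgCCG at 46.97 RPM in replicate 3 and tRNA997-ArgTCT at 33.97 RPM in replicate 2 stood apart. So did the share of tRNA1023-ArgTCG in replicate 3, 21.4%, and that of tRNA628-ArgTCT in replicate 4, 27.9%.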

How the results depend on the processing

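Arg-TCG kept its direction in every setting and its call in all but the replicate block; leaving out WT replicate 2 made most differences smaller. Trimmed-mean scaling, quantile normalization and quality weights brought Arg-ACG past the threshold, at -1.75, -1.66 and -0.89, and trimmed-mean scaling also Arg-CCG, at -0.89. Scaling to the total of the rows or of the tRNA rows ended the call of Arg-TCT, at -1.22 and -1.06, and turned Arg-CCT to 0.26 and 0.42, the latter called, and tRNA107-ArgCCT to 0.20 and 0.36. The number of arginine copies called was 16 of 22 tested with trimmed-mean scaling, where 21.4% of rows were called lower. It was 14 of 22 with quantile normalization (9.21%) and 16 of 23 with quality weights (21.3%). The weights were fitted with a warning that the estimation did not converge. The cause of these changes was not tested. Leaving out 1 library at a time gave ranges of -1.67 to -0.75 for Arg-ACG, -0.66 to -0.16 for Arg-CCG, -2.87 to -1.80 for Arg-TCG, -1.82 to -0.96 for Arg-TCT, -0.084 to 0.044 for Arg-CCT, -1.59 to -0.79 for all arginine tRNAs, 1 to 14 for the copies called, and 5 to 9 for both the pairs and the copy ratios called. The sign of Arg-CCT turned without WT replicate 3 (0.03), iMLL-ENL replicate 2 (0.044) or 3 (0.0006), that of tRNA107-ArgCCT without WT replicate 3 (0.003) or iMLL-ENL replicate 2 (0.010), and the difference in the share of Arg-ACG, -1.31 to 0.32 percentage points over these settings, without WT replicate 2. Arg-ACG was called without WT replicate 2 or 4.

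The groups share replicate numbers. The correlations of same-numbered libraries' deviations from their group means were 0.389, 0.286, -0.133 and 0.420. The labels do not say whether the numbers pair the samples, and the main test has no block. With the replicate block, Arg-TCG was at -2.43, Arg-TCT at -1.51 and all arginine tRNAs at -1.30, with limma adjusted p = 0.058, 0.082 and 0.057, and 5 copies were called, where 6.64% of rows were called lower. The libraries numbered 1, 2 and 4 correlated best with their own number in the other group, whereas those numbered 3 did not. The lowest arginine copy of a library rested on an estimated 52.0 reads, and counting error was not compared with the spread between libraries.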
